A study of Mus musculus with 2 samples.

Results

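Fibroblast and mural cell genes were followed in DNase-seq data of the mouse adrenal gland as 32 genes taken by symbol, out of 21911 protein-coding genes of the basic GENCODE M21 annotation. Of these, 19 belong to fibroblasts (collagens, other matrix proteins, surface proteins and transcription factors) and 13 to mural cells, the smooth muscle cells and pericytes that wrap blood vessels. DNase-seq cuts nuclei with the enzyme DNase I, which reaches DNA not packed into nucleosomes, so a peak of cuts marks open chromatin. Glands came from male B6CASTF1/J mice, F1 animals of C57BL/6J and CAST/EiJ, at 8 to 10 months. There were 2 replicates, called pool 1 and pool 2 below, and each was 1 library from 6 pooled gland biosamples. Both pools carry 1 donor identifier in the labels and the number of animals was not stated in the labels, so the spread between the pools may be technical. No treated or control group exists, so every comparison is with all protein-coding genes of the same pools and carries no test.

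Fibroblasts build the collagen-rich capsule and stroma of the gland. They secrete fibrillar collagens, which form the load-bearing fibres, and the proteins that space and link these fibres. Pericytes and smooth muscle cells receive platelet-derived growth factor and Notch signals from endothelium, and their contractile genes are classic targets of serum response factor, which binds the CArG box with the coactivator myocardin. These cells are a minority in a gland filled mostly by steroid-producing cortex and chromaffin cells. In whole glands, fewer cells of a type and less signal per cell cannot be told apart.

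Open regions that recur in the results are shown first, on the strand of the gene named and with positions on mm10. They were read from the C57BL/6J reference, so CAST/EiJ alleles may differ. Capitals in the Sparc, Postn, Acta2 and Mylk regions mark footprints of pool 1 that overlap a footprint of pool 2. A footprint is a short protected stretch within open chromatin. These are the strongest distal regions of the 4 genes: Sparc because its locus was the richest of the 32, Postn, Acta2 and Mylk because their promoters carried no peak. Capitals in the Col5a1 region mark a match to the motif of NR5A1, the master regulator of steroid-producing cells.
Sparc, chr11:55428201-55428460: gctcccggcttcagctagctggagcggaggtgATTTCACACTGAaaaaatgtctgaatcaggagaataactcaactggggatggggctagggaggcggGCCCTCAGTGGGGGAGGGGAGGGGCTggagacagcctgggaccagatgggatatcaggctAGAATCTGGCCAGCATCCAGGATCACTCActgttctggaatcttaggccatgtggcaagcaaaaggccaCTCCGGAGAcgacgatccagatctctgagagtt
Postn, chr3:54358541-54358740: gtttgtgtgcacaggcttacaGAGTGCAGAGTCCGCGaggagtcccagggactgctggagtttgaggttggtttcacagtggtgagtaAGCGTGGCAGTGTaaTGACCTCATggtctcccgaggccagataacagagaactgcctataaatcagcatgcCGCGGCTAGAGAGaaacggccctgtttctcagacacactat
Acta2, chr19:34244141-34244360: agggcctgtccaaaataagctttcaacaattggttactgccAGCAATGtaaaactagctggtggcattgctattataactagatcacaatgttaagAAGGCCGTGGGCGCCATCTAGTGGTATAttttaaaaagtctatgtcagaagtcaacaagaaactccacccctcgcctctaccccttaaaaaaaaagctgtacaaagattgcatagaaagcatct
Mylk, chr16:34745061-34745280: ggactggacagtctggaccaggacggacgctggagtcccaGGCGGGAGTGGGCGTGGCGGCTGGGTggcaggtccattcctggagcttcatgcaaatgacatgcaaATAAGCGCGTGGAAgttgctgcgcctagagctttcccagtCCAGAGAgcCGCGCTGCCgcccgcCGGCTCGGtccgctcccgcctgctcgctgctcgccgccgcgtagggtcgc
Col5a1, chr2:27912641-27912840: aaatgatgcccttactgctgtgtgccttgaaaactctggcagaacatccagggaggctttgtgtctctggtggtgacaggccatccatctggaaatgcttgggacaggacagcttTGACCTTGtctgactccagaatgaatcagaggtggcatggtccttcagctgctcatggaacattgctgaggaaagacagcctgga

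The deposited main lists held 117371 peaks in pool 1 and 146307 in pool 2, with a median signal of 0.699 and 0.727, and pool 2 had the higher signal in 83.4% of 96584 regions shared by the pools. Signal is the value the authors attached to each peak. Neither its scaling nor the sequencing depth was stated in the labels or readme texts, so no counting interval can be set. Markers checked the tissue. Promoter peaks stood in both pools at 5 of 6 cortex genes (Star 5.44 and 6.52, Cyp21a1 5.27 and 4.72 in pool 1 and pool 2) and 4 of 5 chromaffin genes (Chgb 2.46 and 3.33, Dbh 1.72 and 2.37). The counts were 3 of 5 for endothelium (Kdr 0.884 and 1.07, Cdh5 1.05 and 0.775) and 1 of 4 for macrophages (Cd68 1.14 and 1.26). For other organs they were 1 of 4 for hepatocytes (Ttr 0.892 and 0.687) and 1 of 4 for skeletal muscle (Ckm 1.09 and 1.37).

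Member promoters were open about as often as those of other genes, and the open ones were weak. A promoter peak here overlaps the 1 kb on either side of any annotated transcription start site (TSS) of the gene. In both pools, 17 of 32 members (53.1%) had one, against 61.9% of all protein-coding genes. Another 9 members (28.1%) had none in either pool, against 33.7% of all genes. In pool 1 alone 2 of 32 members had one, against 222 of all 21911 genes, and in pool 2 alone 4, against 738. A peak in a single pool was thus more frequent among members than among all genes. Fibroblast genes were open in both pools in 10 of 19 cases and mural genes in 7 of 13. Over the 17 open members the median of the strongest promoter peak was 1.00 in pool 1 and 1.25 in pool 2. Over all genes open in both pools it was 3.0 and 4.07. Averaged over the pools, 13 of the 17 lay at or under the lower quartile of all open genes (1.66), 1 lay above their median (3.54) and 0 reached the upper quartile (6.27).

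**Figure D1:**
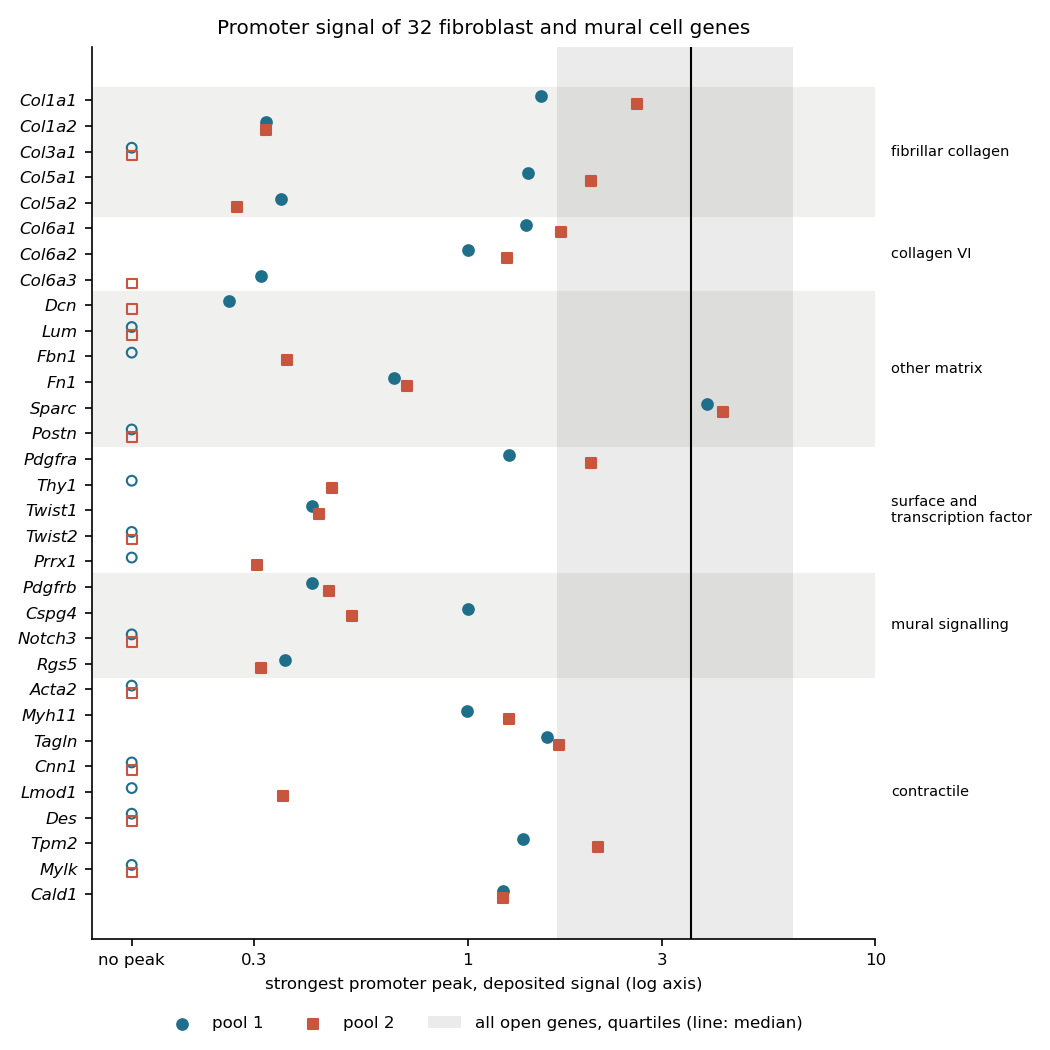
Signal of the strongest promoter peak of each gene in pool 1 (circles) and pool 2 (squares) on a log axis, grouped by role, with open symbols at the left for genes without a peak. The line and grey band give the median (3.54) and quartiles (1.66 to 6.27) of all genes open in both pools, and only Sparc lies right of the line in both pools.

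Of the fibrillar collagen genes, 4 of 5 were open at the promoter in both pools. Col1a1, which encodes a chain of collagen I, the main collagen of fibrous tissue, had 1.51 in pool 1 and 2.60 in pool 2. This peak lay inside the gene (chr11:94937061-94937280), 947 bp past the TSS, and a second peak at the TSS itself (0.542) was listed in pool 1 only. Its partner chain Col1a2 had 0.320 in both pools, at the TSS. Promoters of the 2 chains that build collagen I thus sat at the 30.6 and 1.22 percentiles of all open genes. Col5a1, a chain of the collagen V that sets fibril diameter, had 1.41 and 2.01 at its TSS and 4 promoter peaks in each pool. Col5a2, the other collagen V chain, had 0.349 and 0.272. Col3a1, the collagen of distensible tissues such as vessel wall, had no promoter peak in either pool.

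The collagen VI genes encode a beaded microfilament of the pericellular matrix. Col6a1 had 1.39 in pool 1 and 1.69 in pool 2 at 857 bp past the TSS, plus a peak of 1.20 and 1.61 at the TSS. Its chromosome 10 neighbour Col6a2 had 1.00 and 1.25. Col6a3 on chromosome 1 had 0.312 in pool 1 and no peak in pool 2. Col6a3 was the only collagen gene of the list open in a single pool.

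Sparc stood apart among the other matrix genes, of which 2 of 6 were open in both pools. It encodes osteonectin, a secreted collagen-binding glycoprotein, and had 3.87 in pool 1 and 4.24 in pool 2 (chr11:55423821-55424080), the 55.6 percentile of open genes. That peak lay upstream, at -768 bp in pool 1, and a second one stood at a downstream TSS with 2.47 and 3.01. Fn1, encoding the adhesion protein fibronectin, had 0.661 and 0.711 at its TSS. Dcn, for the collagen-binding proteoglycan decorin, had 0.260 in pool 1 alone, and Fbn1, for the microfibril protein fibrillin-1, had 0.360 in pool 2 alone. Lum, for the related proteoglycan lumican, and Postn, for the matricellular protein periostin, had no promoter peak in either pool.

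Among surface proteins and transcription factors, 2 of 5 were open in both pools. Pdgfra, the receptor that marks most fibroblasts, had 1.26 in pool 1 and 2.01 in pool 2. This peak (chr5:75156241-75156480) lay 462 bp past an internal TSS, while its main TSS at position 75152292 carried a peak of 0.568 within 1 kb in pool 2 alone. The mesenchymal transcription factor Twist1 had 0.416 and 0.432, whereas its relative Twist2 had no peak in either pool. Thy1, a surface glycoprotein shared by fibroblasts, neurons and T cells, had 0.464 in pool 2 alone. Prrx1, a homeobox factor of limb and stromal mesenchyme, had 0.304 in pool 2 alone.

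Mural signalling genes were open in both pools in 3 of 4 cases, all at low signal. Pdgfrb, the pericyte receptor for platelet-derived growth factor B, had 0.416 in pool 1 and 0.456 in pool 2. Rgs5, a regulator of G-protein signalling used as a pericyte marker, had 0.357 and 0.312. Cspg4, the NG2 proteoglycan of pericytes, had 1.00 and 0.520, so the log2 ratio of pool 2 to pool 1 was -0.95, the lowest of the 17. A TSS of Odf3l1 lies within 1 kb of that peak. The same holds for the promoter peaks of Col1a2 (Gm43921), Col5a1 (2810430I11Rik), Fn1 (Apol7d) and Pdgfra (Gm42803), so the signal of these 5 genes cannot be assigned to the member alone. Notch3, the receptor that maintains vascular smooth muscle, had no promoter peak in either pool. In the shorter peak list none of the 4 was open in both pools.

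Contractile genes were split, with 4 of 9 open in both pools, 1 in pool 2 alone and 4 in neither. Myh11, smooth muscle myosin heavy chain and the most restricted smooth muscle marker, had 0.996 in pool 1 and 1.26 in pool 2 at its TSS (chr16:14291281-14291540). Tpm2, a tropomyosin that lies along the actin filament, had 1.37 and 2.09 at its TSS. Cald1, for the actin-binding protein caldesmon, had 1.22 in both pools at an internal TSS, and 0.624 and 0.608 at the first TSS. Tagln, for the actin-binding protein transgelin, had 1.57 and 1.68. The Tagln peak was centred at -1013 and -1063 bp and touched the promoter window only by its edge, so the shared region it forms is also counted among the distal ones. Lmod1, the actin nucleator leiomodin, had 0.352 in pool 2 alone. Acta2 (smooth muscle actin), Cnn1 (calponin), Des (the intermediate filament desmin) and Mylk (myosin light chain kinase) had no promoter peak in either pool.

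The authors' cut-rate table, made from the same libraries as the peaks, gave the same 9 closed genes. The authors' table lists every interval whose cut rate passed a false discovery rate (FDR) of 0.05. Col3a1, Lum, Postn, Twist2, Notch3, Acta2, Cnn1, Des and Mylk had 0 such bases within 1 kb of a TSS in either pool, 9 of 32 members against 32.6% of all genes. These intervals largely coincide with weak peaks: at Rgs5 in pool 1 the peak was 176 bp wide and 176 bases passed. The agreement is therefore not separate support for the 9 genes. With the following measures the members' share was further below that of all genes. In the shorter list 11 of 32 were open in both pools, against 56.7% of all genes. With the window narrowed to 100 bp around a TSS, chosen after seeing the data, the count was 14 against 54.6%. A footprint inside a promoter peak in both pools was found at 13 members, against 59.5% of all genes.

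Members open in both pools shifted less toward pool 2 than all such genes, and members with a peak in 1 pool alone are not covered here. Pool 2 had the higher signal at 13 of the 17, against 12945 of all 13562 open genes. The members' median log2 ratio of pool 2 to pool 1 was 0.13, from -0.95 at Cspg4 to 0.78 at Col1a1. Over all open genes the median log2 ratio was 0.38. The open members were also weaker than all open genes, and no comparison with genes of like signal was made. No test was made, since each pool was 1 library.

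Most member promoters were poor in CpG dinucleotides, and the open ones were weaker than other promoters of that class. The CpG ratio is the observed number of CpG over that predicted from base content, from 250 bp upstream to 50 bp downstream of the main TSS. The signal is that of the strongest peak near any TSS of the gene, so ratio and signal can describe different DNA. Under a ratio of 0.6 lay 27 of 32 members (84.4%) and 53.8% of all genes. Of these CpG-poor members 14 (51.9%) were open in both pools, above the 36.1% of all CpG-poor genes. Their median signal over the pools was 1.17, below the 1.94 of all open CpG-poor genes. The 5 CpG-rich members were Col5a1, Fn1, Twist1, Twist2 and Notch3, and 3 were open against 91.9% of all CpG-rich genes. Median signal of those 3 was 0.686, and 4.39 over all open CpG-rich genes. Twist2 (ratio 0.80) and Notch3 (0.71) were thus closed although most promoters of their class were open. Sparc (0.07) had one of the lowest ratios and the highest signal of the members, but its peak, at -768 bp in pool 1, lay outside the ratio's window. This split was added after seeing the data.

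**Figure D2:**
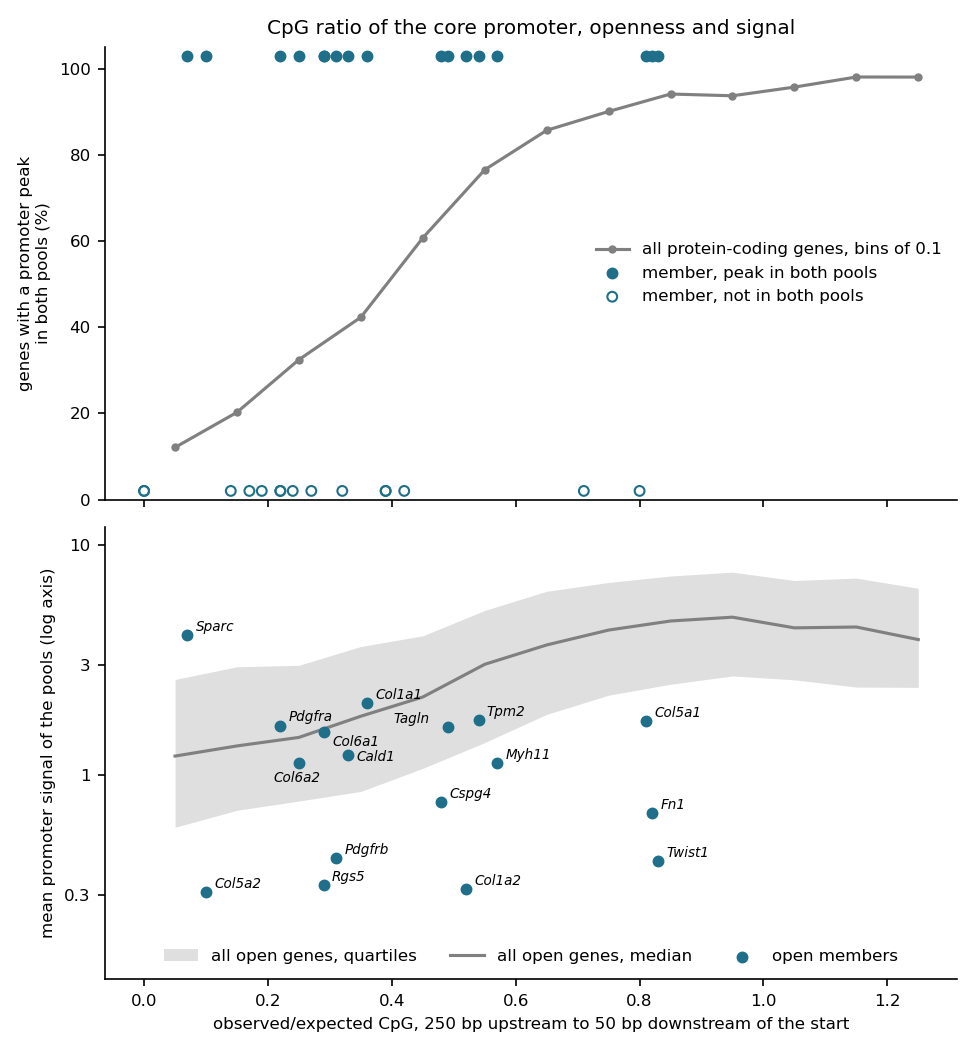
Upper panel: percent of all protein-coding genes with a promoter peak in both pools by CpG ratio (grey, bins of 0.1 with 20 or more genes), with each member marked at the top if open in both pools and at the bottom if not. Lower panel: mean promoter signal on a log axis against CpG ratio for the 17 open members, over the median and quartiles of all open genes; Sparc lies above the band, and the CpG-rich Col5a1, Fn1 and Twist1 are among the genes below it.

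Most loci held distal open regions found in both pools, at a share close to that of all genes. A distal region here is a merged peak seen in each pool, with its midpoint over 1 kb from every annotated TSS and at most 50 kb from a TSS of that gene. At least 1 was present at 28 of 32 members (87.5%), against 84.0% of all genes. Members had a median of 5, all genes a median of 4. Mural genes had a median of 6 with none lacking a region, and fibroblast genes a median of 3 with 4 lacking one, namely Col5a2, Fbn1, Fn1 and Twist1. The 15 members not open in both pools had a median of 4 distal regions, against 2 for all such genes. In total 167 distinct regions lay near members, none counted for 2 members. For 113 of them (67.7%) the nearest protein-coding TSS was the member's own, a measure added after seeing the data. That share was lower near mural than near fibroblast genes, so the higher mural median partly counts regions nearer to other genes. It was 1 of 8 at Cnn1, 1 of 6 at Lmod1 and 1 of 5 at Pdgfrb. Among fibroblast genes, Thy1 had 1 of 10. Counting genes of every type, the nearest was a member for 60 of the 167 regions (35.9%). Midpoints fell in introns for 90, between genes for 64 and in exons for 13.

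**Figure D3:**
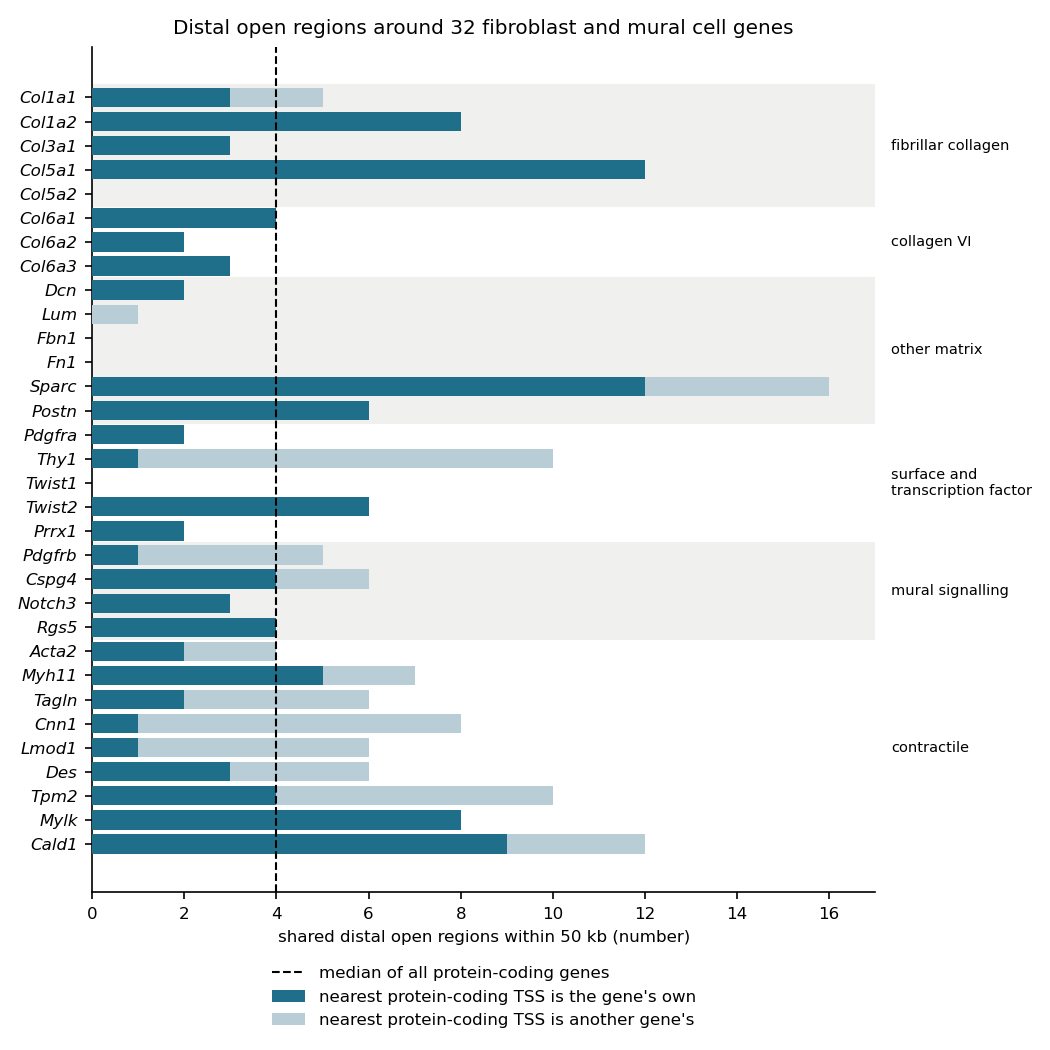
Number of shared distal open regions within 50 kb of each gene, split by whether the nearest protein-coding TSS is the gene's own (dark) or another gene's (light); the dashed line is the median of all protein-coding genes (4). Sparc leads with 16, followed by Col5a1 and Cald1 with 12, and 4 genes have none.

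Distal regions near members had a somewhat higher median signal than all distal regions of the pools. The members' regions lie within 50 kb of a protein-coding TSS, a limit not set for all distal regions. The 2 sets are thus not alike, and this also holds for the footprint and motif shares of distal regions. Their median signal was 0.929 in pool 1 and 1.18 in pool 2, against 0.721 and 0.919 over all 72601. Near mural genes it was 1.08 and 1.29 (85 regions), near fibroblast genes 0.81 and 1.09 (82 regions), whichever gene was nearest to the region. The median log2 ratio of pool 2 to pool 1 was 0.36 with an SD of 0.36 across regions, and 0.34 with an SD of 0.39 over all distal regions. A footprint was found in each pool in 137 (82.0%), against 78.4% of all distal regions.

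**Figure D4:**
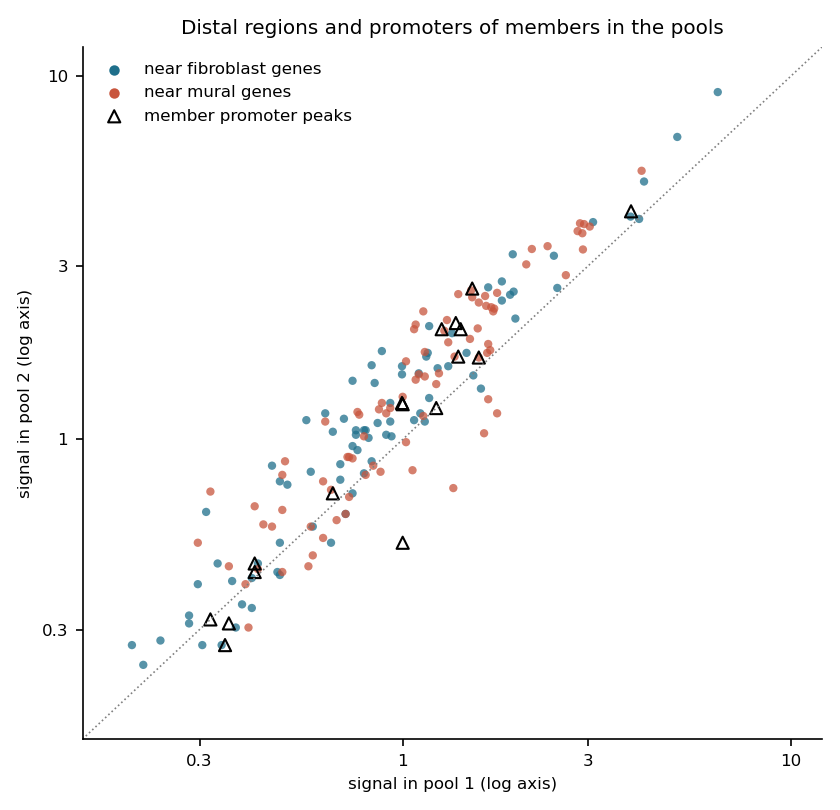
Signal in pool 2 against pool 1, both on log axes, for the 167 distal regions near fibroblast (blue) and mural (red) genes and for the 17 promoters open in both pools (triangles); the dotted line marks equal values. Pool 2 is higher in 135 of the 167 regions, and the triangle furthest below the line is Cspg4.

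Sparc had the densest locus, with 16 regions, 12 of them nearest to Sparc and 8 within the gene. Its strongest region, printed above, had 5.09 in pool 1 and 6.79 in pool 2 at -5148 bp, the 99.4 percentile of all distal regions. It held 5 footprints in pool 1 and 6 in pool 2. An intronic region 16932 bp past the TSS followed with 3.09 and 3.96. Sparc was the nearest gene to both.

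The fibrillar collagen loci varied. Col5a1 had 12 regions, 11 of them within the gene, and the strongest (printed above) had 3.86 and 4.10 in an intron 26316 bp past the TSS. Col1a2 had 8, with 0.996 and 1.51 at the strongest, 43608 bp from the main TSS and beyond the gene's end. The strongest region near any member was counted for Col1a1 (chr11:94979001-94979220, 6.47 and 9.02), yet it lay 42887 bp away and its nearest gene was Sgca, which encodes a sarcoglycan of muscle. The 3 regions nearest to Col1a1 itself had 0.691 to 0.795 in pool 1 and 0.711 to 1.06 in pool 2. Col3a1 had 3 regions, the strongest with 0.713 and 0.624. Col5a2 had none, so both readouts were low there.

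Of the remaining fibroblast genes, Postn combined a closed promoter with an open upstream region. All 6 of its distal regions had Postn as the nearest gene. The strongest, at -2468 bp, had 1.93 in pool 1 and 2.55 in pool 2, with 4 footprints in each pool, all 4 of pool 1 overlapped by one of pool 2. Twist2 also had 6, with at most 0.632 and 1.18. Col6a1 had 4 (strongest 1.66 and 2.62), Col6a3 had 3 (0.461 and 0.847) and Col6a2 had 2 (0.758 and 1.06). Pdgfra had 2 (0.996 and 1.59), Dcn had 2 (0.817 and 1.01), Prrx1 had 2 (0.409 and 0.344) and Lum had 1 (0.297 and 0.400). Thy1 had 10, but 9 lay nearer to another protein-coding gene, including the strongest (4.18 and 5.12), in an intron of Usp2.

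Contractile genes had a median of 7 distal regions, including those with closed promoters. Acta2 had 4, the strongest with 0.869 in pool 1 and 1.21 in pool 2 within the gene. Des had 6, of which 3 upstream regions were nearest to Des, with 0.587 to 0.907 in pool 1 and 0.480 to 1.19 in pool 2. Cnn1 had 8, but only an upstream region with 2.36 and 3.40 had Cnn1 as its nearest protein-coding gene. Closed contractile promoters therefore had open regions nearby in both pools, and part of those regions lay closer to other genes.

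Mylk showed how the annotation sets a call. It had 8 distal regions, 7 of them inside the gene. The strongest (2.86 and 3.93, the 96.5 percentile) lay at -39750 bp from the main TSS used here, but it covers position 34745210, where the gene record of Mylk begins. The transcript that starts there is not in the basic set. With every transcript of the comprehensive annotation, a setting added after seeing the data, Mylk and Dcn joined the open members and the count rose from 17 to 19, against 63.7% of all genes. The strongest promoter peak then also rose at Tpm2 (2.15 and 3.34) and Col1a2 (0.483 and 0.767). A second Mylk region, at chr16:34996241-34996420 in an intron, had 2.63 and 2.83. Mylk also encodes telokin, a short protein made from a start site inside the gene.

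The other contractile loci were all above the median of all genes. Tpm2 had 10 regions, the strongest (chr4:43533261-43533580, 4.12 and 5.48) at -9826 bp in an exon of Tln1, with Tpm2 as its nearest gene. A Tpm2 intronic region had 2.15 and 3.34, above the gene's promoter peak of the basic set (1.37 and 2.09). With the comprehensive annotation this region counts as a Tpm2 promoter peak. Cald1 had 12, with 1.75 and 2.53 at -32829 bp. Myh11 had 7 (strongest 1.14 and 1.74), Tagln had 6 (2.90 and 3.69, in an exon of Sidt2) and Lmod1 had 6 (2.93 and 3.91, nearest to Shisa4).

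Mural signalling genes had a median of 4.5 distal regions. Cspg4 had 6, and its 4 intronic regions had 1.07 to 1.28 in pool 1 and 1.16 to 2.01 in pool 2. Notch3 had 3, with the strongest at 1.56 and 2.02 and another inside the gene at 1.49 and 1.89, despite its closed promoter. Rgs5 had 4, the strongest intronic at 0.728 and 0.895. Pdgfrb had 5, but 4 were nearer to another protein-coding gene and the strongest (1.69 and 2.31) lay in an intron of Cdx1.

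**Figure D5:**
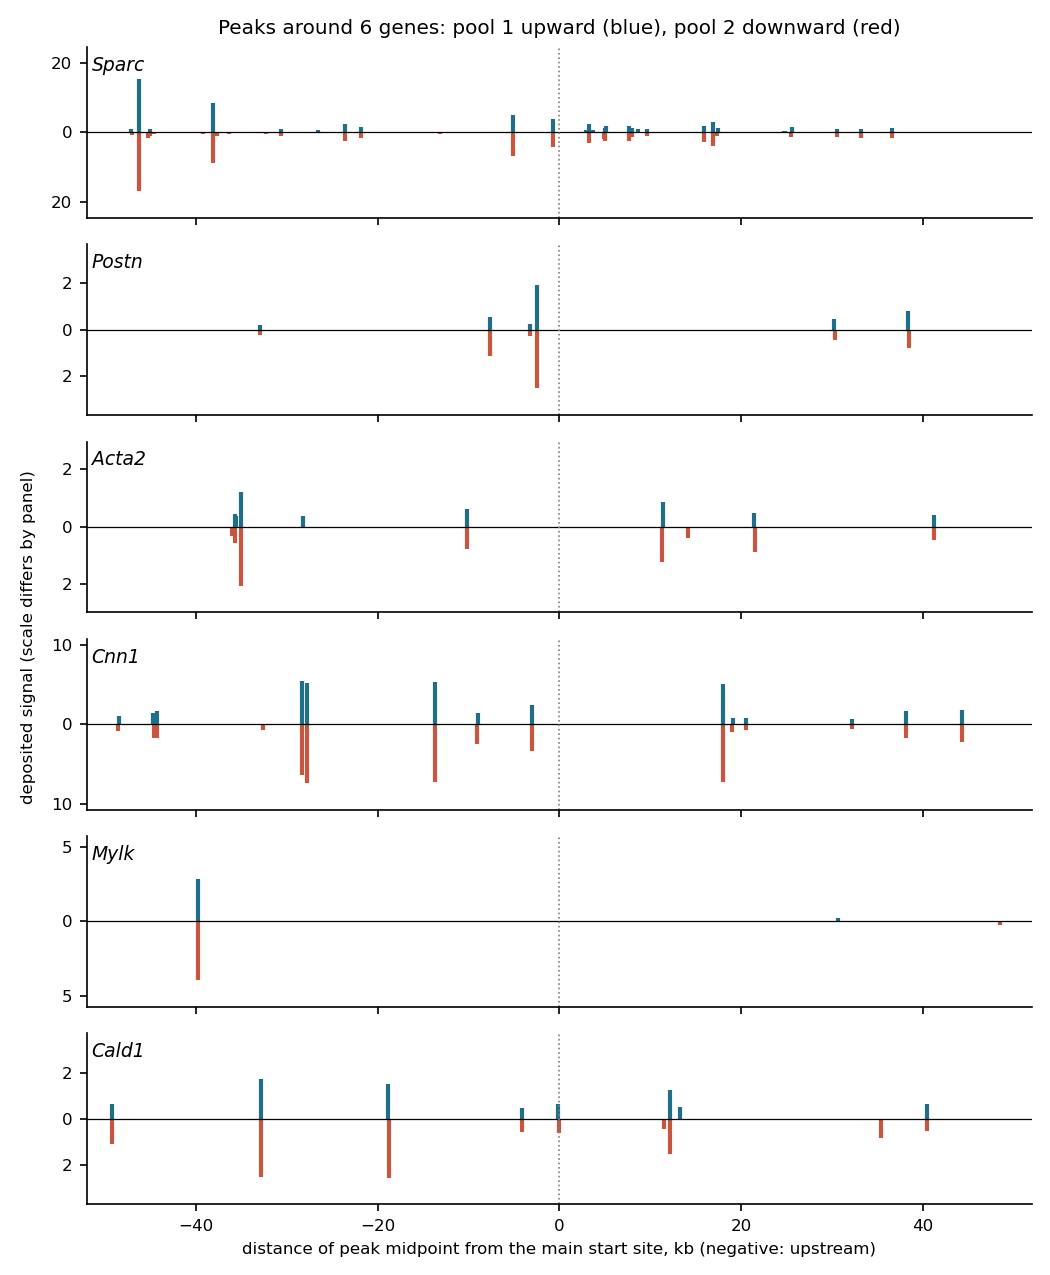
Peaks of pool 1 (upward) and pool 2 (downward) by distance from the main TSS, for 6 genes. Height is the authors' signal, on an axis that differs by panel. Peaks within 50 kb of the main TSS are drawn, those at promoters of neighbouring genes included. Further counted regions, from 177620 bp on for Mylk and from 62461 bp on for Cald1, lie outside this range. Postn, Acta2, Cnn1 and Mylk have no peak at 0, and the tall Mylk bar at -39750 bp stands where its gene record begins.

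Sequence motifs were searched on both strands, and a match is a description of letters, not of binding. In distal windows reaching 75 bp to either side of the midpoint, 3 of 167 regions (1.80%) had a CArG box, the site of serum response factor, against 0.738% of all distal regions. All 3 were near the mural genes Acta2, Lmod1 and Tpm2, and 1, the Acta2 region at -10190 bp, had a footprint at the box in pool 1 only.

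In the promoter windows, letter matches were counted for the members and for all promoters. The TEAD motif GGAATG was in 8 of 32 members (25%; 13.2% of all promoters), the AP-1 motif TGANTCA in 3 (9.38%; 6.70%) and the GC box GGGCGG in 15 (46.9%; 44.8%). The RBPJ motif TGGGAA, through which Notch acts, was in 2 (6.25%; 25%). E-boxes, read by Twist proteins among others, were in 7 for CAGCTG (21.9%; 15.6%) and 4 for CATCTG (12.5%; 14.7%). TATAAA within 50 bp upstream of the TSS was present in Postn and Myh11 (6.25%; 3.29%). The NR5A1 motif CAAGGTCA was in 0 of 32 members and in 1.42% of all promoters. Several of these counts rest on 2 to 4 genes, and no test was made.

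In the distal windows near members, AP-1 letters were in 40 of 167 (24%; 23.2% of all distal regions), NR5A1 in 8 (4.79%; 6.33%), TEAD in 11 (6.59%; 9.78%) and RBPJ in 33 (19.8%; 15.4%). For E-boxes the counts were 22 for CAGCTG (13.2%; 13.3%) and 32 for CATCTG (19.2%; 14.7%). With whole regions searched in place of these windows, the NR5A1 match of the strongest Col5a1 region lay within 10 bp of a footprint in both pools, and so did 1 in each of a second Col5a1 intron region (30106 bp past the TSS), Sparc (7702 bp past the TSS), Postn (38392 bp), Tpm2 (-9826 bp) and Mylk (177620 bp). Other NR5A1 matches, in regions near Acta2, Cnn1 and Cald1 and elsewhere in the same Postn region, had no footprint within 10 bp in either pool. A match in a further Col5a1 intron region (40526 bp past the TSS) had one in pool 2 only. In the windows, 5 of 9 NR5A1 matches near members (55.6%) came within 10 bp of a footprint in each pool. Over all distal windows it was 43.6% of 4726 matches. The share of windows with NR5A1 letters was no higher near members than among all distal regions.

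After the printed sequences were read, 1 further motif was searched. The core CCACNAGNNGG of CTCF, a factor that anchors chromatin loops, was in 17 of 167 distal windows (10.2%), against 6.25% of all distal regions. It was present in the strongest regions of Acta2, Col1a1 and Cnn1. With the whole region searched, it was also in that of Cspg4. Of 17 matches near members, 15 (88.2%) came within 10 bp of a footprint in each pool, against 75.6% of 4595 matches in all distal windows. For AP-1 these shares were 38.0% and 41.7%.

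Partner genes of the same pathways, which are no members, were open more often. All 33 had a promoter peak in both pools, against 61.9% of all genes: 4 of 4 ligands of the platelet-derived growth factor receptors, 4 of 4 Notch pathway genes, 4 of 4 of the serum response factor axis, 10 of 10 of transforming growth factor beta signalling and 11 of 11 of collagen processing. Their median signal was 2.37 and 3.57, against 1.00 and 1.25 for the open members and 3.0 and 4.07 for all open genes. Highest were P4hb (14.0 and 15.7) and P4ha1 (9.94 and 12.3), subunits of the prolyl hydroxylase that stabilises collagen, Mrtfa (11.4 and 13.9), a coactivator of serum response factor, and Srf itself (9.24 and 10.8). None lacked a promoter peak in both pools. As background, many of these partner genes are used by most cell types. Myocd, the coactivator restricted to muscle, had 0.342 and 0.336, and Lox, the enzyme that crosslinks collagen, had 0.342 and 0.312; these 2 were picked after their values were seen.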

How the data were processed

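DNase-seq libraries of 2 adrenal gland pools (1 group) were analysed from the processed files. The authors deposited, per pool, 2 peak lists with a signal per peak, footprints whose score is 0.01 throughout, and a table of false discovery rates, p-values adjusted for multiple tests, listing intervals under 0.05; all are on mm10 per the labels and readme texts. Peaks were called per pool, per the readme texts. Aligner, callers, thresholds and signal scaling: not given in the sources used here.

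The longer list was the main one. Peaks were compared with genes of GENCODE M21 (basic set) by overlap of at least 1 bp with 1 kb around any TSS. Shared regions are merged peaks holding a peak of each pool. Distal counts use midpoints within 50 kb. Sequences came from the RefSeq GRCm38.p6 genome. For promoters, 23 of 32 members were in RefSeq's promoter table, 7 with an identical window. Some sequences are not reported here. Python 3.11.15, numpy 2.4.6, pandas 2.3.3 and bedtools 2.31.1 were used, and interval functions were tested on simulated data.

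All 32 members were named. Of pathway genes, the 4 highest and those without a peak were named (Myocd and Lox were added after their values were seen), of marker lists the 2 highest, and per locus the strongest distal region. Members, lists and motifs were chosen with earlier results of these data known. With 1 group no test was run. Alternatives changed the peak list, its depth, promoter width, distance, overlap, annotation and pool.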

Additional observations from a re-analysis of the deposited data

How the results depend on the processing

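Open members had a lower median signal than all open genes under every setting run over both. Their share of open promoters was below that of all genes under each setting also run over all genes but 1, pool 2 alone (65.6% against 65.3%). Of the main 17 members open in both pools, 11 were left with the shorter list (lost: Col1a2, Twist1, Pdgfrb, Cspg4, Rgs5, Tpm2) and 10 with the 50% of peaks that had the most signal. Their median signal was 1.13 and moved to 1.54, 1.63 and 1.38 with the shorter list, the stronger peaks and equal numbers of peaks in both pools, and to 0.943 with a promoter of 100 bp. Equal numbers of peaks removed Col1a2, Col5a2 and Rgs5. Leaving out 1 pool in turn gave 19 to 21 open members, a median signal of 0.711 to 1.00 and 14 to 15 members with a footprint. The median of 5 distal regions was 3 with the shorter list, 2.5 with the stronger peaks, 3 within 25 kb, 9 within 100 kb and 1 where the nearest TSS had to be the member's; for all genes these were 2, 2, 2, 8 and 1. Leaving out 1 pool gave 5.5 to 6. No paired analysis was possible because there is 1 group. Depth is unknown, so a closed promoter means no peak at the depth of these libraries. With 2 pools no group was large enough to look for samples far from the others.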
